A study of Mus musculus with 8 samples.

Results

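Small nucleolar RNAs and the genes that carry them were followed in 8 libraries of mouse gastric epithelial cells. Members were all rows of the deposited tables whose gene symbol begins with Snora, Snord, Scarna or Snhg, plus Gas5, with a value above 0 in at least 4 of the 8 libraries. Of 38892 rows, 142 carried such a symbol and 110 met the rule. These were 29 H/ACA small nucleolar RNAs (Snora), 55 C/D small nucleolar RNAs (Snord), 8 small Cajal body RNAs (Scarna) and 18 host genes (Snhg and Gas5). Snhg7os is counted as a host by its symbol alone. It lies outside Snhg7, no candidate snoRNA was matched to it, and it was above 0 in 5 libraries. Of the 110 members, 99 were above 0 in all 8 libraries and 11 in 4 to 7 of them.

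Small nucleolar RNAs (snoRNAs) guide the chemical modification of ribosomal RNA. C/D snoRNAs bind the methyltransferase fibrillarin and direct 2′-O-methylation, H/ACA snoRNAs bind the pseudouridine synthase dyskerin and direct pseudouridylation, and Cajal body RNAs do the same for spliceosomal RNAs. In mammals most of them are cut out of introns of host genes, many of which encode ribosomal proteins and translation factors, whereas Snhg genes and Gas5 are hosts whose spliced transcripts encode no conserved protein. A snoRNA and the spliced transcript of its host therefore come from 1 primary transcript but are degraded separately.

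The cells were sorted from the stomachs of C57BL/6 mice, with 4 libraries of animals on a high fat diet (HFD 22, 23, 26 and 27) and 4 of control animals, whose library titles begin with ND (ND 15-17-18, 16, 19 and 20). The labels give no age, sex, diet composition, feeding time or sorting markers, and no other allele or agent for either group. The number of mice behind a library is not stated, ND 15-17-18 may be a pool, and p-values reflect only how far these libraries spread, which may be technical. Total RNA was depleted of ribosomal RNA and sequenced with no selection for poly(A) tails, which snoRNAs lack.

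Levels are log2(value + 1) after each library was scaled to the typical gene, and differences are HFD minus ND on that scale unless the deposited scale is named. The deposited values share 1 total in every library, which leaves the median of all 27380 tested rows 0.90 higher in HFD, and the scaling brings this to 0.12. ND 15-17-18 stands apart: its 100 most abundant rows held 91.6% of its total, against 41.1% to 70.2% in the other 7 libraries, and its scaling factor was 0.205 against 0.789 to 1.59. Its values for most rows therefore rest on a smaller part of the library, and results that depend on it are given without it. The depth of the libraries is not given in the tables. Mean log2 levels over 14 gastric epithelial markers ran from 15.72 to 15.89 in all 8 libraries, with 0 called. Their summed level (log2 of the summed linear values) was 21.61 to 21.74 in HFD and 21.03 to 21.57 in ND. By this measure every HFD library lay above every ND library. Within that list Cblif (intrinsic factor, difference 1.46) and Epcam (0.69) lay wholly above ND in HFD, and the mucin gene Muc5ac (−1.61) and Cdh1 (E-cadherin, −0.42, but 0.43 on the deposited scale) wholly below, as 4.77% and 3.09% of all rows did. The summed level of 6 smooth muscle markers was 11.36 to 12.02 in HFD and 8.72 to 10.75 in ND. For each of the 6, every HFD library lay above every ND library. Summed leukocyte markers ran from 7.21 to 7.84 in HFD and from 6.78 to 8.58 in ND, endothelial and stromal markers from 11.45 to 12.61 and 10.71 to 12.96, and neuron and glia markers from 7.65 to 8.60 and 7.30 to 8.67. The part of these markers in the results below was not tested, and in bulk samples fewer cells of a type and less RNA per cell cannot be told apart.

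The sequences below show the boxes after which the classes are named. They are RNA genes of the GENCODE M21 annotation (GRCm38, the same assembly as mm10), written 5′ to 3′ as DNA. In the C/D snoRNAs capitals mark the C box TGATGA within the first 20 bases and the D box CTGA within the last 15. Snord52 is shown because its HFD values lay above all its ND values, and Snord35a because it lies in an intron of the ribosomal protein gene Rpl13a.
Snord52: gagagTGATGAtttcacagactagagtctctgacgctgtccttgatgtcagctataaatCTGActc
Snord35a: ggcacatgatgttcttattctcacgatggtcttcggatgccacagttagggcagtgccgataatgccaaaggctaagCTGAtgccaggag
Snord52 lies at chr17:34950952-34951017 (minus strand) in an intron of 1110038B12Rik and Snord35a at chr7:45126346-45126435 (minus) in an intron of Rpl13a. Snord52 carried both boxes in these windows and Snord35a carried the D box alone.

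In the H/ACA snoRNAs capitals mark the H box ANANNA that lies nearest the middle of the RNA, within its central part, and the ACA that stands 3 bases before the 3′ end. Snora75 and Snora41 are the H/ACA snoRNAs, besides Snora74a, with all HFD values below all ND values, and Snora21 is among the 5 most abundant.
Snora75: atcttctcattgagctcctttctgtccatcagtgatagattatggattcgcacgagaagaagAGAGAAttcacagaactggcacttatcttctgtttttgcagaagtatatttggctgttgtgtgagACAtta
Snora41: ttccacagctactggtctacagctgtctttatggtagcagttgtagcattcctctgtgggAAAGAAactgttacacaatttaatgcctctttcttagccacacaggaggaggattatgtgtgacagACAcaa
Snora21: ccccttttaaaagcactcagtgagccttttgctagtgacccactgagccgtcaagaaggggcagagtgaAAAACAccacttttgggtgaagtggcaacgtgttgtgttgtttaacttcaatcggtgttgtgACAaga
Snora75 lies at chr1:86351169-86351301 (minus) in an intron of Ncl, Snora41 at chr1:63179004-63179135 (plus) in an intron of Eef1b2, and Snora21 at chr11:97781639-97781775 (minus) in an intron of Rpl23.

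The motifs were searched on the RNA strand of every snoRNA with a GENCODE entry, and CTGA can overlap TGATGA in part. Both C/D boxes were found in 30 of 54 C/D snoRNAs (55.56%), in 0 of 29 H/ACA snoRNAs, and in 0.02% of equally long windows at the starts of 21868 protein-coding transcripts. CTGA near the 3′ end was found in 49 of the 54 C/D snoRNAs and in 6.53% of those windows. The ACA at 3 bases from the end stood in 24 of 29 H/ACA snoRNAs (82.76%), in 0 of 54 C/D snoRNAs, and in 1.39% of windows of the H/ACA length. The H box ANANNA in the central part stood in 26 of 29 H/ACA snoRNAs (89.66%), but also in 30 of 54 C/D snoRNAs (55.56%) and 34.15% of those windows, so this motif alone does not set the classes apart. Such matches describe letters, not binding.

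The classes did not stand alike between the diets. After scaling, 26 of 29 H/ACA snoRNAs had a negative difference (median −0.45), whereas 47 of 55 C/D snoRNAs had a positive one (median 0.61), against 60.06% positive and a median of 0.12 over all tested rows. On the deposited scale 20 of the 29 H/ACA snoRNAs were positive (median 0.35) and 53 of 55 C/D snoRNAs were (median 1.40), with the median row at 0.90. Relative to the median row, the H/ACA class stood at −0.57 and the C/D class at 0.49 after scaling, at −0.55 and 0.50 on the deposited scale, and at −0.58 and 0.59 after quantile normalization. Without ND 15-17-18 they stood at −0.93 and −0.10, so the C/D part of the contrast rested on that library while the H/ACA part did not. The gap between the class medians was −1.06 with all libraries, −0.83 without ND 15-17-18 and −1.71 without ND 20. These are descriptions of lists with no test of their own.

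Library by library, the median H/ACA level was 7.60, 7.47, 8.44 and 7.62 in HFD 22, 23, 26 and 27 and 7.26, 8.55, 9.08 and 8.48 in ND 15-17-18, 16, 19 and 20. HFD 26 lay close to the 3 higher ND libraries, and ND 15-17-18 lay below every HFD library, so the groups overlapped. The median C/D level was 9.96, 9.79, 9.48 and 9.05 in HFD and 6.99, 9.003, 9.22 and 10.60 in ND in the same orders. ND 15-17-18 was the lowest of all 8 libraries for 49 of 55 C/D snoRNAs and ND 20 the highest for 36 of 55, so the HFD libraries lay between them. Over all 27380 tested rows, ND 15-17-18 was the lowest for 6533 and ND 20 the highest for 2161. The C/D median was then subtracted from the H/ACA median inside each library, a difference that the scaling factor hardly moves. It was −2.36, −2.32, −1.04 and −1.43 in HFD and 0.26, −0.45, −0.13 and −2.12 in ND. Of the ND libraries, ND 20 lay within the HFD range and the other 3 above it.

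**Figure D1:**
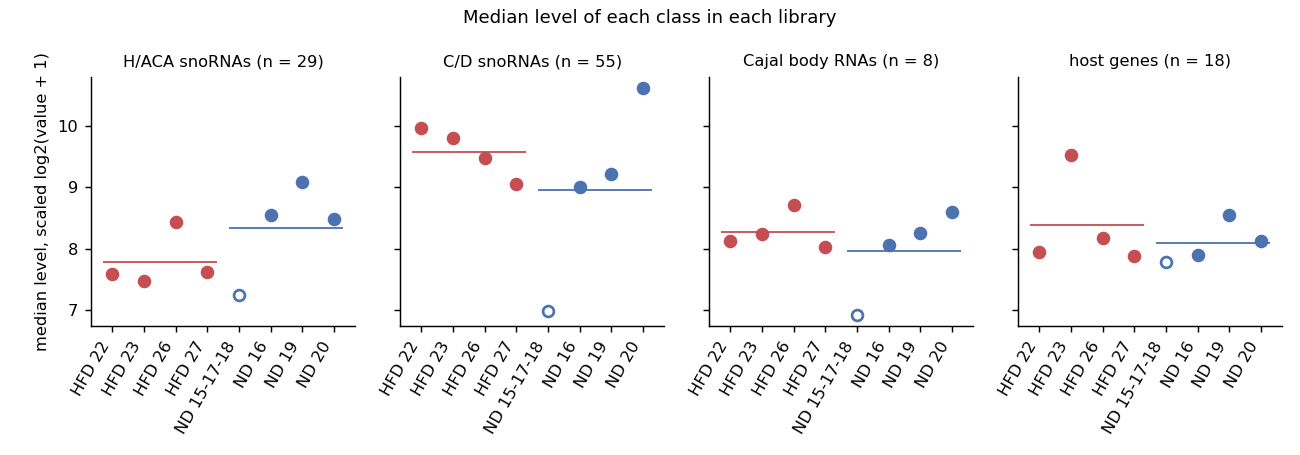
Median scaled log2(value + 1) of each class (y axis) in each library (x axis), HFD in red and ND in blue, with ND 15-17-18 as an open circle and lines at the group means of the library medians. ND 15-17-18 is the lowest library in all 4 panels, at 6.99 for C/D snoRNAs, and ND 20 is the highest for C/D snoRNAs at 10.60.

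The spread between libraries was wider in ND. The median standard deviation of a C/D snoRNA was 0.50 in HFD and 1.56 in ND (n = 4 each), or 0.87 in ND without ND 15-17-18, and it was larger in ND for 52 of 55. For H/ACA snoRNAs it was 0.50 in HFD and 1.05 in ND, or 0.51 without that library. Host genes also spread more in ND, at 0.33 in HFD and 0.63 in ND, with a larger value in ND for 15 of 18. The share over all rows was not computed, so the wider spread is not shown to be particular to snoRNAs.

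Across all rows, limma called 3 of 27380 rows at an adjusted p under 0.05 (0.011%), and 1 of the 110 members was among them, Snora74a. At an unadjusted p under 0.05, 6.52% of all rows were higher and 4.03% lower in HFD, and among the members 2 were higher and 6 lower. The 6 lower were 5 H/ACA snoRNAs and the C/D snoRNA Snord23, and the 2 higher were the C/D snoRNA Snord52 and the host Snhg5. Values in HFD lay wholly above those in ND for 4.77% of all rows and wholly below for 3.09%. Of the members, 2 C/D snoRNAs lay wholly above and 3 H/ACA snoRNAs wholly below. Without ND 15-17-18 the H/ACA snoRNAs at an unadjusted p under 0.05 numbered 13 of 29, all lower in HFD, where 4.15% of all rows were lower and 4.6% higher. Of the C/D snoRNAs 4 were then lower and 2 higher. In that comparison 6 of 29 H/ACA snoRNAs (20.69%) lay wholly below ND, against 4.15% of all rows, and 0 lay wholly above, as 6.34% of all rows did. The C/D class had 2 in each direction. Each count of lower H/ACA snoRNAs above includes Snora74a. It is listed at 0 in every HFD library and passed the filter through ND alone, so its place in them was fixed in advance. Leaving out ND 20 in place of ND 15-17-18 gave 15 C/D snoRNAs higher at an unadjusted p under 0.05, where 6.44% of all rows were, and a C/D median of 1.23. The H/ACA median was −0.18 without ND 19, its value nearest 0 over the 8 libraries left out in turn.

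**Figure D2:**
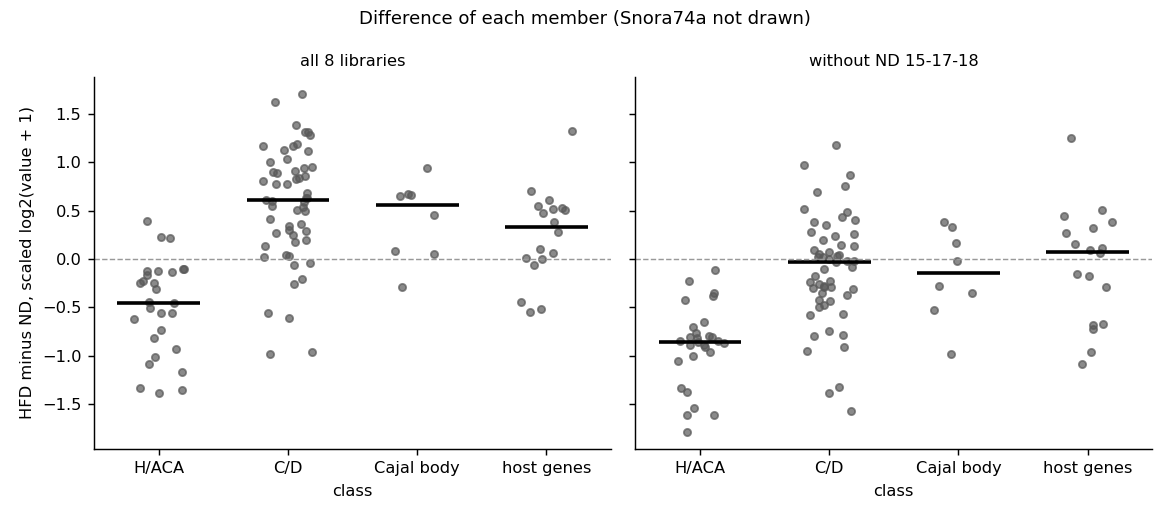
HFD minus ND difference of each member on the scaled log2(value + 1) scale (y axis) by class (x axis), with all libraries on the left and without ND 15-17-18 on the right. Points are members, with Snora74a not drawn, and thick lines are class medians over all members, Snora74a included. The C/D median goes from 0.61 to −0.03 and the H/ACA median from −0.45 to −0.86.

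Snora74a, the U19 snoRNA, which is known for a part in the cleavage of precursor ribosomal RNA, was listed at 0 in all 4 HFD libraries. Its deposited log2 values in ND 15-17-18, 16, 19 and 20 were 5.97, 10.33, 7.50 and 7.28. All ND libraries thus lay above all HFD libraries, with an adjusted p of 0.0058 (limma, n = 4 each), and the adjusted p ran from 3.78e-10 to 0.0488 over the 13 alternative settings. It passed the filter on low values through the ND libraries alone, so a difference was a condition of its being tested, and the range over settings adds no support. No fold is given against values listed at 0, since other snoRNAs that every cell uses are at 0 in every table. Snora74a lies at chr18:35557032-35557227 (plus strand) inside the host Snhg4, whose level was 9.75, 9.62, 10.48 and 9.34 in HFD and 9.12, 10.10, 10.25 and 8.63 in ND. The host therefore overlapped between the groups (difference 0.28 ± 0.39 SE, adjusted p = 0.81 in limma) while its snoRNA did not. In the whole set of tables, 5 rows were listed at 0 in all HFD and above 0 in all ND libraries, and 3 of them had deposited values above 4 in every ND library, Snora74a and the microRNA rows Mir218-1 and Mir218-2. In the other direction 30 rows were at 0 in all ND and above 0 in all HFD libraries, and 0 of them had deposited values above 4 in every HFD library. Whether the tables of both groups were made with the same annotation is not given in the sources used here, so a listed 0 may not be a measured absence.

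Among the other H/ACA snoRNAs, Snora75, from an intron of the nucleolin gene Ncl, stood at 2.84, 3.74, 3.89 and 3.26 in HFD and 4.85, 5.09, 4.57 and 4.63 in ND. Every HFD value lay below every ND value, with a difference of −1.35 ± 0.51 (SE) that did not pass the adjustment over all rows (adjusted p = 0.40, limma). Snora41, from the translation elongation factor gene Eef1b2, stood at 3.24, 3.85, 3.60 and 2.91 in HFD and 4.70, 4.15, 4.28 and 4.55 in ND. Its groups were also apart, by −1.02 ± 0.53 (SE), with an adjusted p of 0.53 (limma). Both are low-level members, and ND 15-17-18 was not the lowest ND library for either. On the deposited scale their differences were −0.58 and −0.24.

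**Figure D3:**
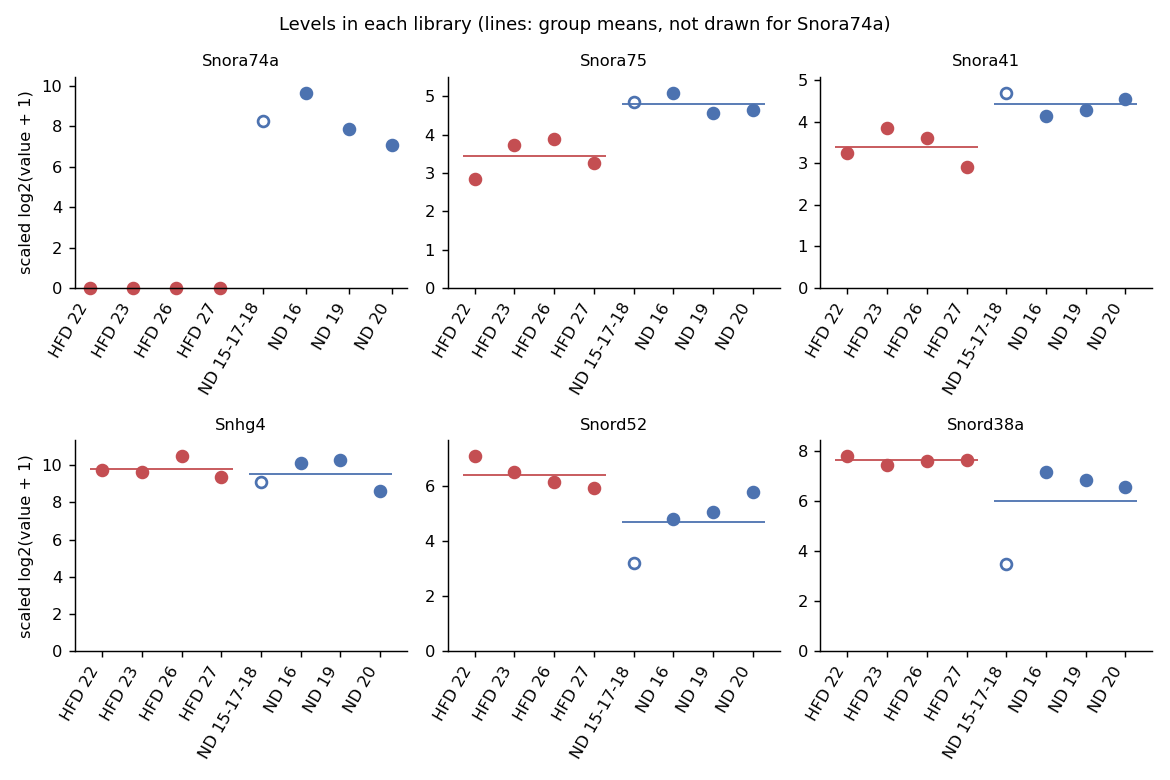
Scaled log2(value + 1) (y axes, each from 0) of 5 snoRNAs and the host Snhg4 in each library (x axes), HFD in red, ND in blue, ND 15-17-18 as an open circle, with lines at group means except for Snora74a. The groups do not overlap for Snora74a, Snora75, Snora41, Snord52 and Snord38a and overlap for Snhg4.

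The 5 H/ACA snoRNAs with the highest mean levels were Snora7a, Snora61, Snora44, Snora21 and Snora68. Snora7a, from Rpl32, stood at 12.53, 11.93, 12.28 and 11.68 in HFD and 10.04, 12.31, 12.90 and 13.70 in ND, which surrounded the HFD values. Its difference was −0.13 ± 0.72 (SE), and 0.72 on the deposited scale. Snora21, from the ribosomal protein gene Rpl23, stood at 9.80, 9.29, 10.25 and 9.44 in HFD and 9.30, 11.13, 11.81 and 10.90 in ND. All HFD libraries lay below the 3 ND libraries other than ND 15-17-18, which was level with HFD 23 (difference −1.09 ± 0.50 SE, adjusted p = 0.49 in limma). Snora68 had 9.54, 8.71, 10.19 and 9.36 in HFD against 9.24, 11.26, 11.08 and 9.93 in ND, with a difference of −0.93 ± 0.49 (SE). Snora44 and Snora61 both come from Snhg12 and differed by −0.25 and −0.12, which became 0.61 and 0.73 on the deposited scale. Snora7a, Snora44 and Snora61 overlap annotated exons of their hosts, so their reads cannot be told apart from those of the hosts. Per kilobase of RefSeq length, mean H/ACA levels ran from 3.53 to 15.13 on the log2 scale, with Snora7a at the top.

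Of the C/D snoRNAs, Snord52 had the largest positive difference. It stood at 7.10, 6.54, 6.15 and 5.93 in HFD and 3.21, 4.81, 5.06 and 5.80 in ND, so that the lowest HFD and the highest ND value nearly met. The difference was 1.71 ± 0.56 (SE), with an adjusted p of 0.33 (limma), and 1.18 without ND 15-17-18. Snord38a was tight in HFD, at 7.81, 7.47, 7.63 and 7.66, against 3.48, 7.17, 6.86 and 6.58 in ND. ND 15-17-18 carried much of its difference of 1.63 ± 0.73 (SE, adjusted p = 0.48 in limma), which was 0.75 without that library.

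Snord55, the most abundant C/D snoRNA, had 13.36, 14.50, 14.41 and 13.73 in HFD and 13.48, 13.75, 14.62 and 16.40 in ND. The groups overlapped, and ND 20 was the highest library. Its difference was −0.56 ± 0.64 (SE), and 0.29 on the deposited scale. Per kilobase of RefSeq length its mean log2 level was 17.96. The difference did not pass the adjustment over all rows (limma).

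The other abundant C/D snoRNAs did not separate the groups. Snord83b, from Rpl3, stood at 13.28, 14.08, 14.01 and 13.01 in HFD and 12.05, 13.61, 13.78 and 14.79 in ND. Snord17, from Snx5, was the most uneven, with 13.69, 11.75, 12.45 and 13.43 in HFD and 13.06, 14.81, 13.59 and 9.17 in ND, and it was the one of the 5 most abundant for which ND 20 was the lowest library. Snord16a, from Rpl4, and Snord8, from Chd8, differed by 0.27 and 0.61, and by −0.42 and −0.22 without ND 15-17-18. Snord23, from Nop53, was the C/D snoRNA lower at an unadjusted p under 0.05, with 10.31, 10.31, 10.82 and 10.06 in HFD and 10.33, 11.27, 12.14 and 11.61 in ND (difference −0.96 ± 0.35 SE, adjusted p = 0.39 in limma, named after its values were seen).

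Small Cajal body RNAs had a positive difference in 7 of 8, with a median of 0.56, and in 3 of 8 without ND 15-17-18, with a median of −0.15. None was called, and ND 15-17-18 was the lowest library for all 8. Scarna17, the most abundant, stood at 10.01, 11.25, 10.60 and 9.97 in HFD and 7.83, 9.38, 10.30 and 11.66 in ND, a difference of 0.67 ± 0.77 (SE). Scarna3a had 8.83, 8.85, 8.51 and 8.65 in HFD and 7.01, 9.42, 9.50 and 10.08 in ND, and its difference of −0.29 became 0.55 on the deposited scale. Scarna13 stood at 8.55, 8.61, 9.28 and 8.65 in HFD and 7.53, 9.28, 7.96 and 8.48 in ND. Scarna6 had 7.72, 7.76, 8.91 and 7.68 in HFD and 6.84, 8.21, 8.40 and 8.40 in ND. HFD 26 was the highest HFD library for both, as it was for the H/ACA median, and Scarna2, a guide for the spliceosomal U2 RNA, was also highest there at 9.46.

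The 18 host genes had a median difference of 0.33, with 14 of 18 positive, 0.08 without ND 15-17-18 and 0.02 without HFD 23. Snhg1 stood at 14.71, 14.78, 14.59 and 14.16 in HFD and 13.79, 14.82, 15.20 and 14.44 in ND, with equal group means of 14.56. Gas5, whose transcript is a known target of nonsense-mediated decay and accumulates in growth-arrested cells, stood at 13.89, 14.09, 13.87 and 13.53 in HFD and 11.20, 13.63, 13.76 and 14.59 in ND (difference 0.55 ± 0.66 SE). Snhg3 stood at 13.59, 13.54, 13.73 and 12.97 in HFD and 12.35, 14.61, 14.33 and 14.62 in ND. All HFD libraries lay below ND 16, 19 and 20 and above ND 15-17-18, and its difference of −0.52 ± 0.50 (SE) was 0.34 on the deposited scale. Snhg5 had 11.08, 11.40, 10.93 and 11.24 in HFD and 9.76, 10.74, 10.48 and 11.20 in ND, with ND 20 inside the HFD range (difference 0.61 ± 0.27 SE, adjusted p = 0.47 in limma). Snhg6 and Snhg7 were high in 1 library, HFD 23, at 9.81 and 9.77 against 6.45 to 7.66 and 7.30 to 8.05 in the other 7 (named after their values were seen).

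Comparing each snoRNA with its own host inside a library sets the snoRNA beside the transcript it is cut from. It also leaves out most of the library's scaling, though less so for rows near 0, where the added 1 weighs more. Reads of a snoRNA cannot be told apart here from reads of the unspliced intron around it. In all, 84 pairs with 67 hosts could be formed from RefSeq and GENCODE positions. Of 28 H/ACA pairs, 25 had a lower snoRNA-to-host ratio in HFD, with a median of −0.74, although the median difference of their hosts was 0.19. Of 50 C/D pairs, 38 had a higher ratio, with a median of 0.27, and 32 had a lower one without ND 15-17-18, with a median of −0.13. Of 6 Cajal body pairs, 3 were higher. Without ND 15-17-18, 26 of the 28 H/ACA pairs were lower, with a median of −0.92. Both counts of lower H/ACA pairs include Snora74a with Snhg4, whose place in them was fixed in advance.

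The exact two-sided permutation test over the 70 divisions of the libraries gave its smallest possible p of 0.0286 for 8 of the 84 pairs, and the adjusted p over all 84 was 0.30 for each, so no pair passed. This p marks pairs whose groups do not overlap, which was also seen for 4.77% (above) and 3.09% (below) of all single rows. Of the 8, 6 were H/ACA snoRNAs with lower ratios in HFD and 2 were C/D snoRNAs with higher ones, counts that are given as a description. Snora21 minus Rpl23 was 0.34, −0.71, 0.14 and 0.13 in HFD and 0.57, 1.93, 1.80 and 1.01 in ND, a difference of −1.35. Snora41 minus Eef1b2 was −8.47, −7.72, −8.23 and −8.82 in HFD and −5.54, −6.89, −7.04 and −6.67 in ND, a difference of −1.77. In this pair the host was 0.76 higher while the snoRNA was 1.02 lower. Snora23 minus Ipo7 differed by −1.41, Snora75 minus Ncl by −1.27 and Snora62 minus Rpsa by −0.93, and the remaining pair was Snora74a with Snhg4. Because Snora74a passed the filter through ND alone, the separation of that pair was a condition of its being tested. Snord52 minus 1110038B12Rik was −4.25, −5.70, −5.02 and −5.31 in HFD and −5.96, −6.00, −5.93 and −6.79 in ND, a difference of 1.10. Snord35a minus Rpl13a was −1.13, −1.83, −1.40 and −0.95 in HFD and −2.22, −1.89, −2.37 and −1.94 in ND, a difference of 0.78 with the host at equal levels in both groups. For both C/D pairs the separation included ND 15-17-18 but did not rest on it, with differences of 1.17 and 0.74 without it.

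**Figure D4:**
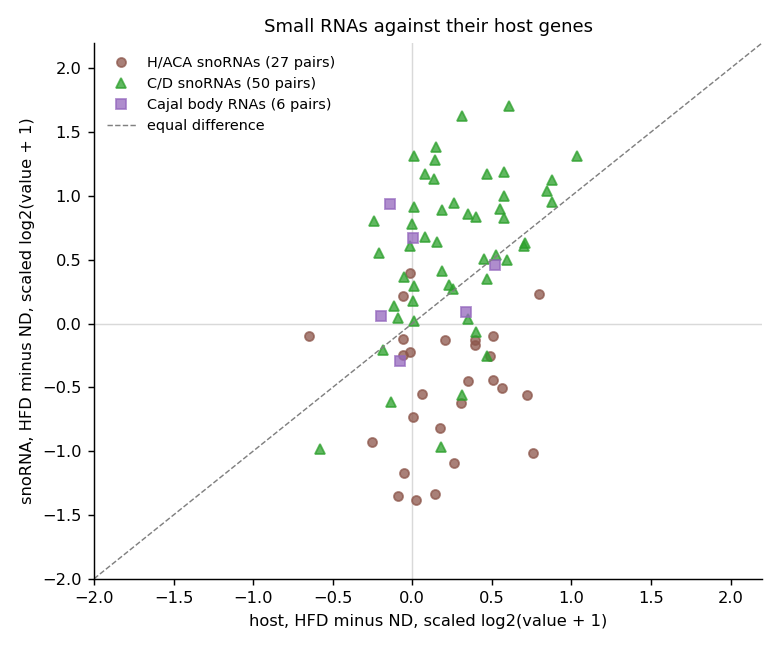
HFD minus ND difference of each snoRNA (y axis) against that of its host (x axis), both on the scaled log2(value + 1) scale, with 1 symbol per pair by class and a dashed line where both are equal (Snora74a not drawn). Most H/ACA pairs lie below the line and most C/D pairs above it.

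Among the hosts, 2 carried a detected snoRNA of each class, and they were looked up after the class pattern was seen. In Eif4a2, Snora81 differed by −1.34 ± 0.38 (SE) and Snord2 by 1.28 ± 0.88, or by −1.05 and 0.40 without ND 15-17-18. Within Ncl, Snora75 differed by −1.35 and Snord82 by 0.04 ± 0.53, or by −1.38 and −0.57 without that library. By kind of host, of the H/ACA snoRNAs in ribosomal protein genes 9 of 10 were negative, and of the C/D snoRNAs in such genes 13 of 15 were positive. In Snhg genes and Gas5, 6 of 7 H/ACA snoRNAs were negative and 8 of 8 C/D snoRNAs positive. The 7 include Snora74a, whose sign was fixed in advance. All other hosts together held the most, with 11 of 12 H/ACA snoRNAs negative and 22 of 27 C/D snoRNAs positive. Of 5 C/D snoRNAs with no host found, among them Snord73b, which has no GENCODE entry, 4 were positive. Without ND 15-17-18, negative differences were found for 10 of the 10 and 9 of the 15 in ribosomal protein genes, for 7 of the 7 and 3 of the 8 in Snhg genes and Gas5, for 12 of the 12 and 15 of the 27 in other hosts, and for 4 of the 5 with no host found.

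The gap of ND 15-17-18 was set against RNA length. By RefSeq positions the median length was 68 nucleotides for C/D, 120 for H/ACA and 94.5 for Cajal body RNAs. GENCODE entries were often longer, with medians of about 78 for C/D and 133 for H/ACA, and Scarna2 at 414 in place of 61. Which lengths apply to the deposited values is not given, and the relations below use RefSeq lengths alone. ND 15-17-18 minus the median of the other 3 ND libraries was −2.31 for the median C/D snoRNA, −1.61 for H/ACA, −2.03 for Cajal body RNAs, −0.93 for hosts and −0.02 for all rows. Over the 82 small RNAs above 0 in all libraries, length and this gap had a Pearson r of 0.49 and a Spearman rho of 0.51, across RNAs that share the same 4 libraries and given as a description. Among C/D snoRNAs alone the gap was −2.85 for 28 RNAs of up to 69 nucleotides and −1.98 for 19 RNAs of 70 to 99 (r 0.44, rho 0.37 over 50 RNAs). Among 25 H/ACA snoRNAs length and the gap had an r of 0.21 and a rho of 0.06, so the relation was weak within that class. Length and the HFD minus ND difference had an r of −0.48 and a rho of −0.63 over the 82, or −0.33 and −0.49 without ND 15-17-18. Within C/D snoRNAs these were −0.29 and −0.40, or −0.09 and −0.21 without it, and within H/ACA snoRNAs −0.25 and 0.02, or −0.15 and 0.05. Length and class are bound together in this set, and their parts in the HFD minus ND differences cannot be told apart.

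**Figure D5:**
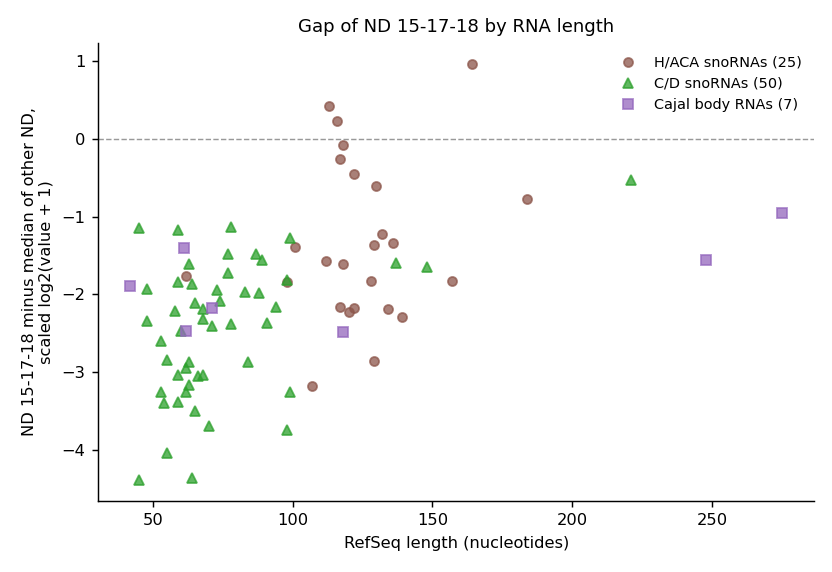
Level in ND 15-17-18 minus the median of the other 3 ND libraries on the scaled log2(value + 1) scale (y axis) against RefSeq length in nucleotides (x axis) for the 82 small RNAs above 0 in all libraries, by class. Most points lie below 0, and C/D snoRNAs of up to 69 nucleotides have a median of −2.85.

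Several snoRNAs that every cell uses were listed at 0. Of the 142 candidate rows, 27 were listed at 0 in all 8 libraries, 19 C/D, 7 H/ACA and 1 Cajal body RNA. Of the pre-rRNA cleavage set, 7 of 10 were among them: Snord14a, Snord14c, Snord14d and Snord14e (U14), Snord22 (U22), and Snora73a and Snora73b (U17). Their hosts were far from 0. Hspa8, which carries 3 of the U14 copies, had deposited log2 values of 11.66 to 16.66, and Snhg3, which carries Snora73a and Snora73b, had 10.07 to 15.28. The 3 detected members of the set were Snora74a, Snord118 (U8, needed for the large subunit's ribosomal RNAs) and Snord13 (U13). Snord118 had 6.57, 8.21, 7.28 and 6.52 in HFD and 6.10, 6.65, 8.31 and 7.70 in ND, and Snord13 had 10.20, 9.03, 8.66 and 8.74 in HFD and 7.40, 8.44, 9.22 and 10.60 in ND. Both overlapped between the groups.

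The snoRNAs of the Rpl13a introns are known as mediators of the cellular response to excess lipid. Of the 4, Snord32a, Snord33 and Snord34 were listed at 0 in every library, with Rpl13a at deposited log2 values of 10.03 to 15.19. Snord35a, the remaining one, stood at 12.28, 12.43, 12.49 and 12.13 in HFD and 10.10, 11.66, 11.44 and 13.03 in ND (difference 0.78 ± 0.53 SE, adjusted p = 0.62 in limma, and 0.26 without ND 15-17-18). The HFD libraries lay above 3 ND libraries and below ND 20. Values of near-identical copies, such as the U14 family or Snord1b and Snord1c, are uncertain, because how reads with several positions were counted is not given in the sources used here.

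The rule's limit of 4 libraries fell among low rows. Just inside it, Snora20 (0, 1.16, 2.32 and 0 in HFD, 0, 3.18, 1.77 and 1.80 in ND) and Snord98 (2.03, 0, 0.95 and 2.32 in HFD, 0, 1.64, 0 and 3.12 in ND) were above 0 in 5 libraries. Just outside it were 5 candidates above 0 in 1 to 3 libraries, Snora26, Snora33, Snord100, Snord45c and Snhg9. Of these, Snora26, Snord100 and Snord45c were above 0 in ND 15-17-18 and ND 19 only, with deposited log2 values of 4.66 and 11.20, 6.62 and 7.84, and 1.34 and 4.81. This pattern was shared by 10 rows of the whole series.

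Genes of the snoRNP machinery gave no call in any list. Of the 4 proteins that bind every H/ACA snoRNA, Nhp2 stood at 8.95, 9.12, 9.15 and 8.90 in HFD and 8.35, 8.57, 8.65 and 8.68 in ND, all HFD values above all ND values (difference 0.47 ± 0.13 SE, adjusted p = 0.27 in limma). Nop10 had 8.46, 8.14, 9.21 and 8.42 in HFD and 7.49, 8.21, 7.99 and 7.88 in ND (0.66 ± 0.25 SE). Dkc1, the pseudouridine synthase dyskerin, differed by 0.27 ± 0.21 (SE), and Gar1 by −0.33 ± 0.17, which was 0.52 on the deposited scale. The H/ACA proteins had a median difference of 0.37, which was 0.24 without ND 15-17-18. On the deposited scale the protein median was 1.22, above the median of all tested rows at 0.90, while the H/ACA snoRNA median of 0.35 lay below it. The 4 C/D proteins, fibrillarin (Fbl), Nop56, Nop58 and Snu13, differed by 0.34, 0.40, 0.19 and 0.51, with a median of 0.37 and 0 called. Without ND 15-17-18 the median was 0.12, and Nop56, Nop58 and Snu13 differed by 0.03, −0.08 and 0.20.

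Of 11 assembly factors 0 were called and 9 had a positive difference (median 0.13), or 5 without ND 15-17-18 (median −0.0071). Znhit3, a factor of C/D assembly, was the 1 of the 11 whose groups did not overlap, and it was named outside the rule for named genes. It stood at 7.21, 7.02, 6.92 and 7.10 in HFD and 5.80, 6.56, 6.32 and 6.53 in ND (0.76 ± 0.24 SE, adjusted p = 0.32 in limma). Naf1, which acts in H/ACA assembly, differed by −0.41 ± 0.24 (SE). Of 10 Cajal body, cap and trafficking factors 7 were positive (median 0.08), of 7 factors of intron debranching and 3′ end maturation 4 were (median 0.05), and of 17 genes of the U3 processome and RNA polymerase I 9 were (median 0.04), none called. Without ND 15-17-18 these medians were 0.04, 0.0028 and −0.012. Of 10 nonsense-mediated decay factors, which degrade the spliced transcripts of several Snhg genes, 8 were negative with 0 called. Their median was −0.18, or −0.17 without ND 15-17-18 and 0.67 on the deposited scale. In 3 of the 10 all HFD values lay below all ND values, against 3.09% of all rows. Upf1 is 1 of these 3 and was named outside the rule for named genes. Upf1, the central helicase of that pathway, stood at 10.67, 10.69, 10.95 and 10.94 in HFD and 11.63, 11.26, 11.65 and 11.43 in ND. The groups did not overlap, with a difference of −0.68 ± 0.13 (SE, adjusted p = 0.16 in limma) that was 0.17 on the deposited scale. Of the imprinted snoRNA clusters, known from neurons, 2 of 3 rows were detected, Snord64 and Snord116l1, each above 0 in 5 libraries and at most 4.50.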

How the data were processed

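RNA was measured in 4 HFD and 4 ND libraries, grouped by title. The values deposited by the authors were taken to be log2, floored at 0, because their antilogs sum to 36.9 M in every library, and a value of 0 was taken as 0. Per the submitters' processing notes, build mm10 and bedtools 2.17.0 were used. Aligner, annotation and normalization: not given in the sources used here. Rows sharing a symbol were reduced to the highest, which left 38892.

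Libraries were scaled by the median ratio over 11107 rows above 30 in all 8. The test was limma 3.58.1 (R 4.3.3, trend and robust) on log2(value + 1) of rows whose linear value reached 1 in 4 or more libraries, with Benjamini-Hochberg adjustment over 27380 rows and a threshold of 0.05. The fit was tested on simulated data. This scale understates differences of low rows. Depth is unknown, so no counting interval is given.

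Symbols, lengths of small RNAs and the positions used to find hosts came from RefSeq (GRCm38.p6). Printed coordinates, sequences, strand and exons came from GENCODE M21. Of the members, 29 of 29 H/ACA, 54 of 55 C/D and 8 of 8 Cajal body RNAs matched GENCODE. A host is a gene spanning the snoRNA on its strand, except that Snhg4 was matched to Snora74a by position alone. Each snoRNA minus its host was compared by an exact permutation test.

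The members and lists were chosen with earlier results of these data known. Named genes were those called, the 5 most abundant of each class, up to 4 per direction and class whose groups did not overlap, the Rpl13a and pre-rRNA cleavage sets, the core snoRNP proteins and the pairs with the smallest p. Alternatives were the deposited scale, quantile normalization, a pseudocount of 10, no filter, a filter at 30, and each library left out.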

Additional observations from a re-analysis of the deposited data

Results flagged for a closer look

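Each level below stood apart from the other 3 libraries of its group, by a gap to the nearest of them that took up most of the group's range, in 80 groups examined. Chance gives about 1 such case in 20 groups, and 6 were found. The median H/ACA level was 8.44 in HFD 26, against 7.47 to 7.62 in the other HFD libraries. Scarna13 stood at 9.28 in HFD 26, against 8.55 to 8.65, and Scarna6 at 8.91 in the same library, against 7.68 to 7.76. In ND 15-17-18, Scarna6 stood at 6.84, against 8.21 to 8.40 in the other ND libraries, Snord38a at 3.48, against 6.58 to 7.17, and Snhg3 at 12.4, against 14.3 to 14.6. All 6 cases thus fell in 2 libraries.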

How the results depend on the processing

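No paired analysis was possible because the groups share no replicate numbers. Snora74a was the 1 member past the threshold under each of the 13 alternatives, which is no support for it, since it is listed at 0 in every HFD library and passed the filter through ND alone. On the deposited scale the class medians were 0.35 for H/ACA, 1.12 for Cajal body RNAs and 1.14 for hosts, and 9 named genes changed sign: Snora7a (0.72), Snora61 (0.73), Snora44 (0.61), Snord55 (0.29), Scarna3a (0.55), Snhg3 (0.34), Snhg12 (0.79), Snord118 (0.79) and Gar1 (0.52). After quantile normalization Scarna6 was −0.023 and Snhg12 0.0073. A pseudocount of 10, no filter and a filter at 30 changed the sign of no named gene they tested. Leaving out 1 library at a time, the Cajal body median ran from −0.15 (without ND 15-17-18) to 0.65 and the median snoRNA-minus-host difference from −0.40 (without ND 15-17-18) to 0.20. The C/D median ran from −0.03 (without ND 15-17-18) to 1.23 (without ND 20), and the hosts' median from 0.02 (without HFD 23) to 0.46. The ranges that crossed 0 among named genes were −0.89 to 0.35 (Snora7a), −0.66 to 0.24 (Snora61), −0.85 to 0.038 (Snora44), −0.95 to 0.052 (Snord55), −0.49 to 0.45 (Snord83b), −0.99 to 0.89 (Snord17), −0.42 to 0.69 (Snord16a), −0.22 to 1.14 (Snord8), −0.017 to 1.29 (Scarna17), −0.99 to 0.065 (Scarna3a), −0.35 to 0.20 (Scarna6), −0.29 to 0.21 (Snhg1), −0.18 to 0.98 (Gas5), −0.68 to 0.30 (Snhg12), −0.44 to 0.33 (Snord118), −0.29 to 0.81 (Snord13) and −0.083 to 0.44 (Nop58). The causes of these changes were not tested. Depth is unknown, and rows listed at 0 cannot be told from rows that were not estimated.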
